A study of Mus musculus with 11 samples.

Results

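The proteasome subunit genes were followed in C2C12, an established line of mouse myoblasts able to fuse into myotubes, after a hairpin against Drp1, the GTPase that divides mitochondria. Members were the rows of the count table whose mouse symbol begins with Psm, followed by a letter from a to g and a number, leaving out the interferon-inducible catalytic subunits and pseudogenes. This gave 44 of 15113 genes, with 14 in the core particle, 17 in the cap, 6 activator and inhibitor genes and 7 assembly chaperones. All 44 passed the filter on low counts. Psma8 and Psmb11, which also fit the naming rule, have no row in the table and are not analysed here.

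RNA was counted in 11 libraries of cells labelled as early stage myotubes at passages 2 to 5. Libraries labelled shRandom (n = 6) carried a random hairpin and those labelled shDRP1 (n = 5) a hairpin against Drp1; the labels name no other treatment and no medium or time. They do not say whether libraries came from separate cultures or whether a group is 1 clone, so each p-value reflects only library-to-library spread, possibly technical. Library totals ran from 12277622 to 23082617 counts. Dnm1l, which encodes Drp1, stood at 67.1 to 86.3 CPM (counts per 1000000 counts, with library sizes scaled by TMM) in shRandom libraries and at 18.7 ± 2.58 CPM (SD, n = 5) in shDRP1 libraries, 23.7% of the shRandom mean (log2 fold change -2.07, SE 0.11, adjusted p = 2.7e-10, edgeR).

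The label "early stage myotubes" did not hold alike in both groups. The 10 striated muscle markers looked at, Myog and Acta1 among them, summed to 10937 to 12225 CPM in shRandom and to 150.0 to 210.0 CPM in shDRP1 libraries. All 10 fell. The lowest in the shDRP1 group was Actn2 at 0.188 CPM. The 7 measured fibroblast and smooth muscle markers summed to 7547 to 8356 CPM in shRandom and to 16314 to 21300 CPM in shDRP1 libraries, and 6 of the 7 rose. Macrophage markers summed to 2.43 to 3.43 CPM and 9.42 to 16.5 CPM, with Lyz2 higher in shDRP1, Csf1r lower, and no row for Ptprc or Adgre1. Of the adipocyte and osteoblast lists 1 gene each was measured (Lipe and Runx2, both lower in shDRP1), and no endothelial marker passed the filter. The part of this difference in cell state in the results on proteasome genes was not tested, and in bulk RNA fewer cells of a type and less RNA per cell cannot be told apart.

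The proteasome is the large protease that degrades proteins tagged with ubiquitin. Its barrel-shaped core stacks outer rings of alpha subunits, which form the gate, on inner rings of beta subunits, which carry the cutting sites. The cap on its end has a base with a ring of ATPases that unfold the substrate and a lid that removes ubiquitin, while activators such as PA28 and PA200 can take the place of the cap. In muscle this system breaks down contractile proteins during remodelling and wasting, and subunit genes are known to be transcribed together through the factor NRF1, encoded by Nfe2l1.

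Most proteasome genes were modestly lower in shDRP1 libraries, and cap genes had a lower median than core genes. Of 44 members, 24 fell, 7 rose and 13 missed the threshold, an adjusted p of 0.05 (edgeR quasi-likelihood test, Benjamini-Hochberg adjustment over all 13025 tested genes). Over all tested genes 33.3% fell and 33.9% rose, 67.1% together. Against this background 54.5% of members fell and 15.9% rose. The median log2 fold change (shDRP1 over shRandom) was -0.24 over the members and 0.03 over all tested genes. With library totals alone as scaling, 10 members rose and 19 fell, and with upper quartile scaling 10 rose and 21 fell. These scalings shifted the median of all genes by 0.10 and 0.08 on the log2 scale. At a stricter adjusted p of 0.01, 21 members fell and 4 rose, beside 28.9% and 27.6% of all tested genes.

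Changes were small for this comparison. At least 2-fold changes were called for 3 members, Psmc1 (lower), Psme2 and Psme2b (both higher), while 24.9% of all tested genes reached that size. For 22 members, 18 lower and 4 higher in shDRP1, no library of one group lay within the range of the other. Over all tested genes this held for 48.9%, with 25.4% lower and 23.5% higher. The members' summed level was 9650 ± 184 CPM (SD, n = 6) in shRandom and 7667 ± 184 CPM (SD, n = 5) in shDRP1 libraries, which is 79.4% of the shRandom mean.

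**Figure D1:**
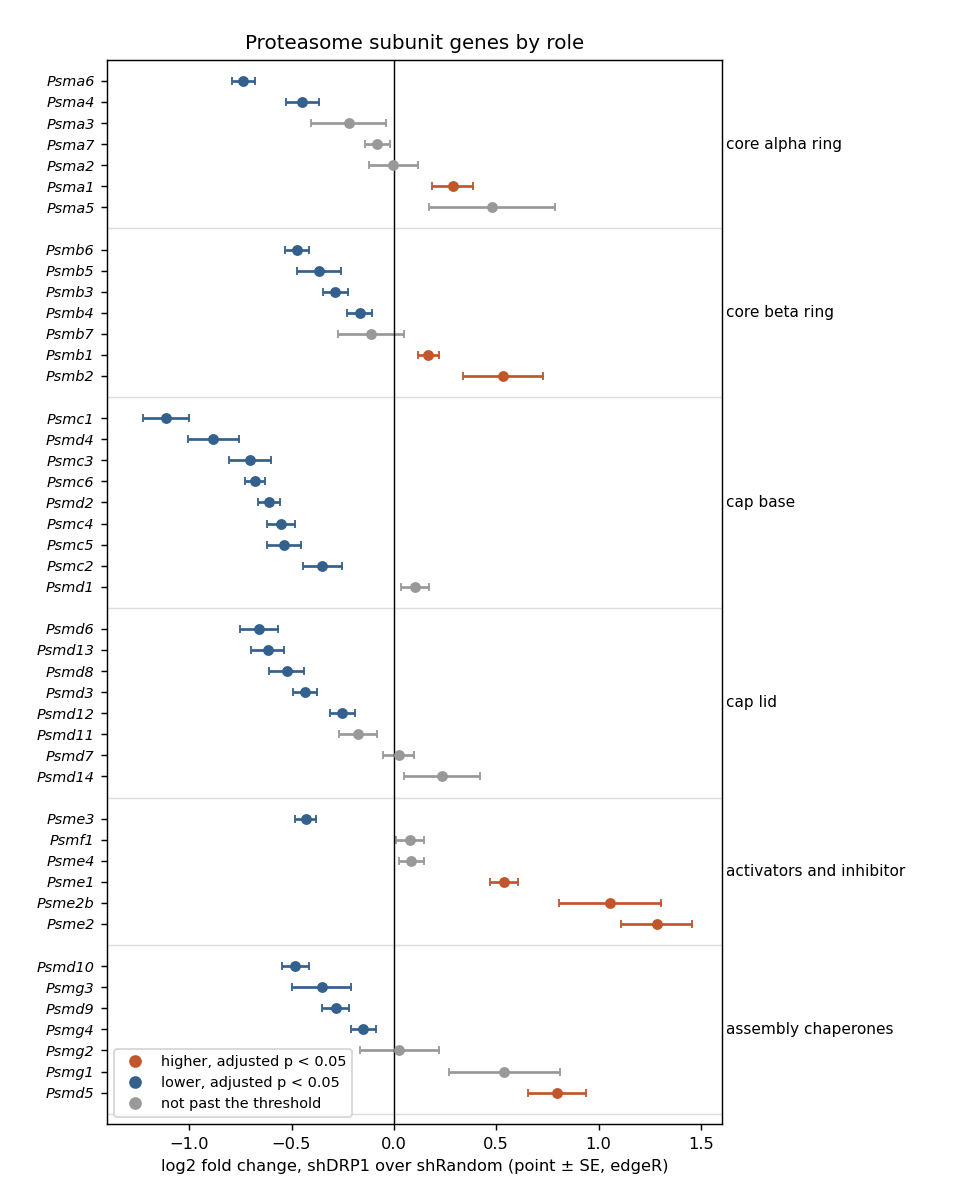
Log2 fold changes (x axis, shDRP1 over shRandom, point with SE from edgeR) of the 44 proteasome genes, grouped by role, with colour showing the call at an adjusted p of 0.05. Cap genes lie mostly left of 0 with none called higher, core genes lie on both sides, and Psme1, Psme2 and Psme2b lie to the right while Psme3 lies to the left.

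Every gene of the ATPase ring of the cap base fell, and Psmc1 had the largest decrease of the 44 members. The log2 fold changes of the 6 ATPase genes, Psmc1 to Psmc6, ran from -1.11 for Psmc1 to -0.35 for Psmc2. Psmc1 stood at 611.7 to 875.8 CPM in shRandom libraries (median 782.3) and at 366.5, 285.4, 300.2, 393.3 and 423.3 CPM in shDRP1 replicates 1 to 5. Every shDRP1 library was below every shRandom library, and the change was -1.11 (SE 0.11, adjusted p = 7.1e-07, edgeR). Psmc6 had the narrowest spread of all members. It stood at 219.4 to 247.4 CPM (median 236.6) in shRandom and at 142.2, 145.2, 149.9, 148.3 and 153.1 CPM in shDRP1 libraries, a change of -0.68 (SE 0.05, adjusted p = 1.9e-08). Psmc3, Psmc4 and Psmc5 also fell without overlap, to 61.4%, 68.2% and 68.9% of their shRandom means, whereas the ranges of Psmc2 overlapped. Psmc3 ends where the opposite-strand gene Slc39a13 lies, and the strand setting of the counting is not given in the sources used here, so its count may hold reads of that gene.

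Among the other base subunits, the ubiquitin receptor and 1 of the 2 large scaffold subunits fell. Psmd2, a scaffold that docks ubiquitin-like domains, stood at 358.9 to 395.7 CPM (median 385.8) in shRandom libraries. In shDRP1 replicates 1 to 5 it stood at 257.7, 228.4, 245.2, 258.9 and 263.2 CPM, with no overlap and a change of -0.61 (SE 0.05, adjusted p = 1.5e-07, edgeR). Psmd4, a ubiquitin receptor, stood at 542 ± 75.8 CPM (SD, n = 6) in shRandom and fell to 54.2% of that, or 294 ± 54.2 CPM (SD, n = 5). The other scaffold, Psmd1, was at 489 ± 35.8 and 525 ± 37.2 CPM and missed the threshold (log2 fold change 0.10, adjusted p = 0.187). With library totals alone Psmd1 passed as higher (0.20, adjusted p = 0.025), as it did with upper quartile scaling (0.19, adjusted p = 0.025). Psmd1 overlaps the same-strand gene Gm21972, which has no row in the count table, at its end.

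In the lid, 5 of 8 genes fell and none rose. The structural subunit Psmd13 stood at 227.3 to 285.1 CPM (median 245.3) in shRandom and at 166.4, 140.4, 152.6, 167.6 and 188.1 CPM in shDRP1 libraries (-0.62, SE 0.08, adjusted p = 9.4e-06, edgeR). Psmd3, another structural subunit, stood at 341.1 to 404.2 CPM (median 368.5) and at 280.4, 263.5, 275.7, 285.9 and 282.4 CPM (-0.43, SE 0.06, adjusted p = 9.7e-06). Neither gene overlapped between groups. Psmd6 fell to 63.3% and Psmd8 to 69.6% of the shRandom mean without overlap, and Psmd12 to 84.0% with overlap (adjusted p = 0.051 with library totals alone). Psmd11 was at 88.7% and did not pass (-0.17, adjusted p = 0.114), but without shDRP1 replicate 2 it passed as lower (-0.28, adjusted p = 0.0039).

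The pair of lid subunits that form the deubiquitinating module did not pass the test. Psmd14, the deubiquitinase, was at 90.5 ± 18.8 CPM (SD, n = 6) and 107 ± 30.7 CPM (SD, n = 5), a log2 fold change of 0.23 (SE 0.18, adjusted p = 0.278). Its partner Psmd7 stood at 351.8 to 415.5 CPM (median 392.5) in shRandom and at 361.9, 346.5, 378.0, 421.6 and 459.3 CPM in shDRP1 libraries. Those ranges overlapped (0.02, SE 0.08, adjusted p = 0.794), and without shRandom replicate 1 or shDRP1 replicate 4 or 5 the sign of Psmd7 turned (-0.0084, -0.0010 and -0.0366). Psmd7 is the only member on chromosome 8 (107580381 to 107588464, minus strand, GRCm38). Of the 113 other tested genes within 5 Mb of it, 64 rose, 16 fell and 33 did not pass, with a median of 0.37. Among all tested genes 33.9% rose and 33.3% fell.

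The core particle changed less and in both directions. Of 14 core genes, 6 fell and 3 rose (median -0.14), against 13 and 0 of 17 cap genes (median -0.54). The core median was -0.0404 with library totals alone, -0.0560 with upper quartile scaling and -0.0917 without shDRP1 replicate 5. Core genes summed to 3217 ± 113 CPM (SD, n = 6) in shRandom and 2911 ± 109 CPM (SD, n = 5) in shDRP1 libraries, and cap genes to 5790 ± 218 and 4066 ± 197 CPM. The shDRP1 means were 90.5% (core) and 70.2% (cap) of the shRandom means. The ratio of core to cap, which does not depend on the scaling of libraries, ran from 0.507 to 0.617 (median 0.553) in shRandom. In shDRP1 replicates 1 to 5 it was 0.708, 0.760, 0.769, 0.702 and 0.649, above every shRandom library. Genes with high levels weigh most in these sums, in the cap Psmc3, Psmc1 and Psmd4 (means of 854, 765 and 542 CPM in shRandom). Within shRandom the ratio was highest in replicate 1 and lowest in replicate 4, which are also the ends of the shared axis described below. These sums add levels of 3' tags over genes and serve only to compare libraries, and the difference between core and cap was not tested.

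**Figure D2:**
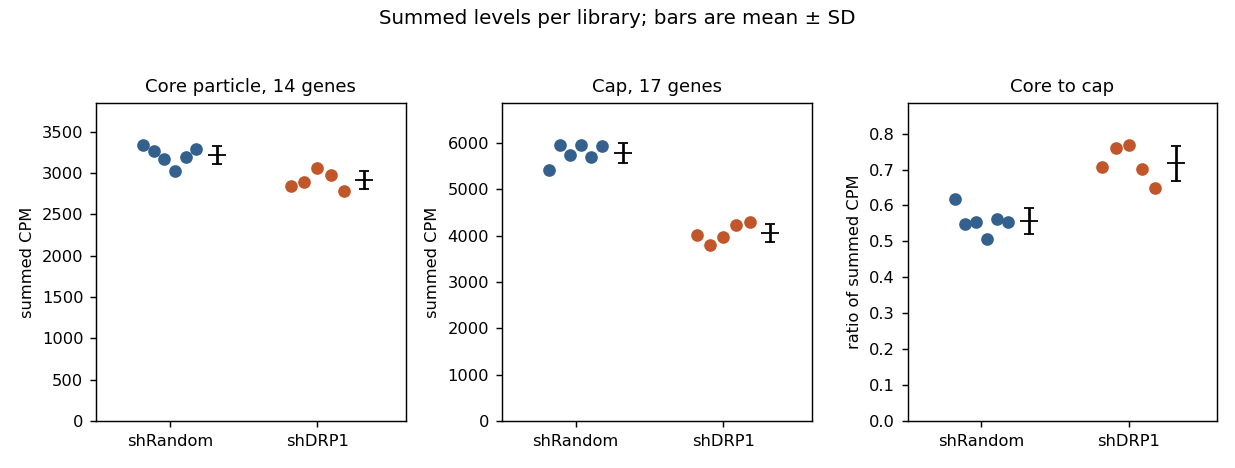
Summed CPM per library of the 14 core genes and the 17 cap genes, and their ratio (y axes from 0), with 1 point per library and mean ± SD beside the points (n = 6 shRandom, n = 5 shDRP1). The cap sums lie at 5420 to 5969 CPM in shRandom and at 3810 to 4288 CPM in shDRP1 libraries, while the core sums of the groups overlap.

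Of the alpha ring, which gates the core, Psma6 and Psma4 fell and Psma1 rose. Psma6 stood at 169.0 to 196.6 CPM (median 173.9) in shRandom and at 106.5, 101.9, 110.5, 107.7 and 106.7 CPM in shDRP1 libraries, which is 60.1% of the shRandom mean (-0.73, SE 0.05, adjusted p = 1.9e-08, edgeR). Psma4 stood at 204.9 to 270.6 CPM (median 245.8) and at 177.5, 159.5, 162.5, 192.8 and 196.5 CPM (-0.45, SE 0.08, adjusted p = 1.6e-04). Both fell without overlap, Psma4 narrowly. Psma1 was at 122% of the shRandom mean (0.29, adjusted p = 0.021), and did not pass without shDRP1 replicate 2 (0.16, adjusted p = 0.057). Nor did Psma1 pass with the replicate number as a block (0.255, adjusted p = 0.057). Psma2, Psma3, Psma5 and Psma7 did not pass, with log2 fold changes of -0.00, -0.22, 0.48 and -0.08. With the ribosomal RNA share of each library as a covariate, Psma3 passed as lower (-0.27, adjusted p = 0.018). The signs of Psma2 and Psma7 turned under library totals alone (0.10 and 0.0191). Psma3 overlaps the opposite-strand transcript 3110056K07Rik at its end.

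The 3 standard catalytic subunits of the beta ring did not move as 1 block. Psmb6, with the caspase-like site, stood at 273.1 to 330.4 CPM (median 312.0) in shRandom and at 216.7, 213.1, 223.9, 233.8 and 221.2 CPM in shDRP1 libraries, with no overlap (-0.47, SE 0.06, adjusted p = 5.7e-06, edgeR). Psmb5, with the chymotrypsin-like site that drugs such as bortezomib block, stood at 29.8 to 47.1 CPM (median 39.8) and at 30.5, 33.2, 33.5, 29.2 and 25.9 CPM. Its ranges overlapped (-0.37, SE 0.11, adjusted p = 0.0079), and with library totals alone it no longer passed (-0.27, adjusted p = 0.057). Psmb7, with the trypsin-like site, stood at 93.9 to 187.7 CPM (median 142.0) and at 133.6, 173.1, 140.4, 122.9 and 101.3 CPM. The shDRP1 range of Psmb7 lay inside the shRandom range (-0.11, SE 0.16, adjusted p = 0.553). Psmb7 overlaps the opposite-strand gene Nek6 at its end.

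The non-catalytic beta subunits were split. Psmb3 stood at 204.7 to 233.6 CPM (median 211.5) in shRandom and at 165.4, 166.3, 190.1, 183.7 and 182.0 CPM in shDRP1 libraries, all of them lower (-0.29, SE 0.06, adjusted p = 7.7e-04, edgeR). Psmb4 was at 89.0% of the shRandom mean (-0.17, adjusted p = 0.021), and it did not pass without shRandom replicate 2 (adjusted p = 0.053), shRandom replicate 6 (0.052) or shDRP1 replicate 5 (0.051), nor with library totals alone (0.349) or upper quartile scaling (0.234). Psmb1 rose to 112% (0.17, adjusted p = 0.012), but did not pass with the replicate number as a block (0.19, adjusted p = 0.053). Psmb2 rose from 20.3 ± 5.17 to 29.4 ± 8.08 CPM (0.53, adjusted p = 0.028), a call that was lost without shDRP1 replicate 2 (adjusted p = 0.092), shDRP1 replicate 3 (0.068) or shRandom replicate 2 (0.056).

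**Figure D3:**
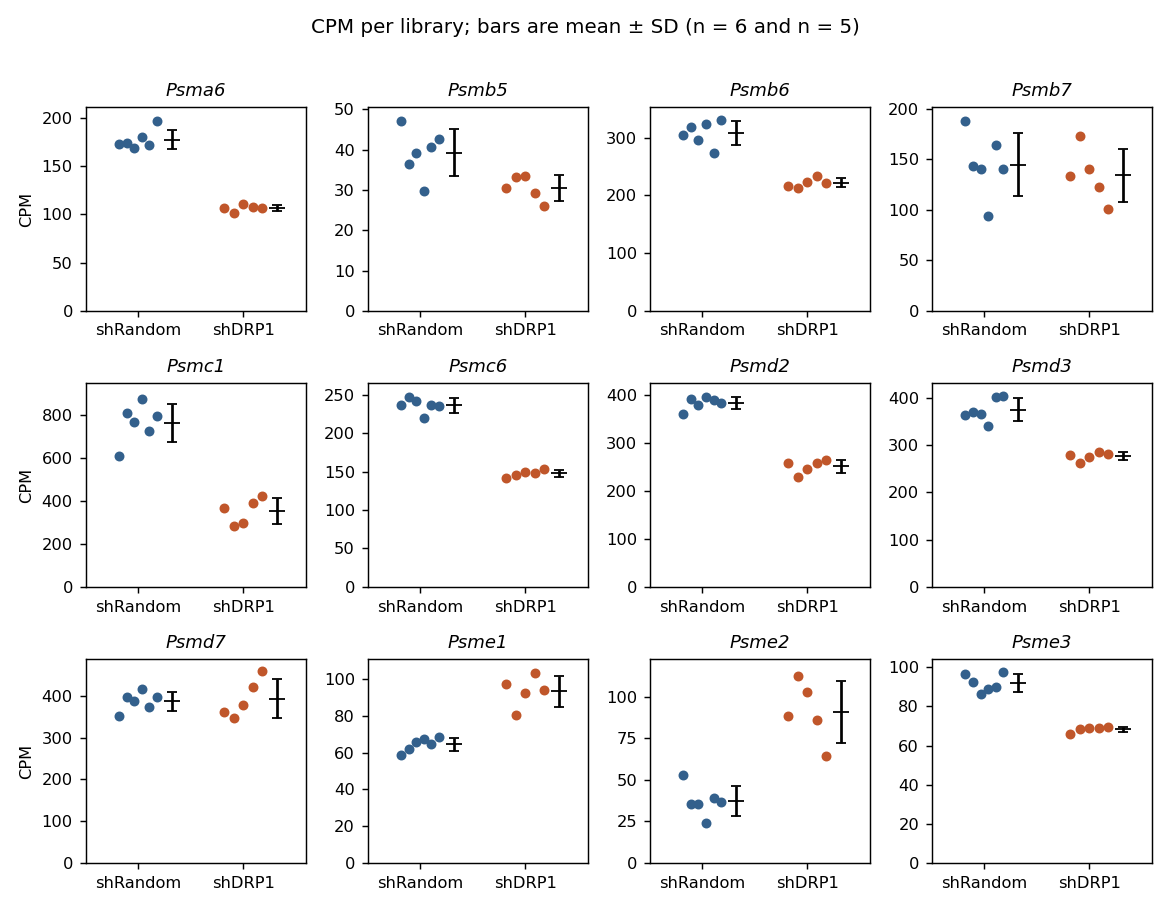
CPM in each library (y axes from 0) for 12 proteasome genes of the core, cap and activators, with 1 point per library and mean ± SD beside the points (n = 6 shRandom, n = 5 shDRP1). The groups lie apart for Psma6, Psmb6, Psmc1, Psmc6, Psmd2, Psmd3, Psme1, Psme2 and Psme3, and overlap for Psmb5, Psmb7 and Psmd7.

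Activator genes moved against each other. The alternative activator PA28 exists as an interferon-inducible ring of the Psme1 and Psme2 products, which favours peptides for antigen presentation, and as a nuclear ring of the Psme3 product. Psme1 stood at 58.6 to 68.2 CPM (median 65.3) in shRandom and at 97.1, 80.4, 92.4, 103.4 and 94.1 CPM in shDRP1 libraries (0.54, SE 0.07, adjusted p = 6.9e-06, edgeR). Psme2 stood at 24.3 to 52.6 CPM (median 36.3) and at 88.4, 112.3, 103.0, 85.9 and 64.0 CPM (1.28, SE 0.17, adjusted p = 1.8e-05), the highest fold of any member. Both genes were higher in every shDRP1 library than in any shRandom library. Psme1 overlaps the opposite-strand gene Emc9 at its end. Psme3 went the other way, from 86.3 to 97.6 CPM (median 91.3) in shRandom to 65.7, 68.3, 68.7, 68.8 and 69.5 CPM in shDRP1 libraries (-0.43, SE 0.05, adjusted p = 4.1e-06).

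The balance within PA28 therefore differed between the groups in every library. The ratio of Psme2 to Psme3 ran from 0.273 to 0.547 in shRandom and from 0.921 to 1.64 in shDRP1 libraries. Psme2b, a near copy of Psme2 on chromosome 11, was at 0.762 ± 0.267 and 1.57 ± 0.304 CPM (adjusted p = 0.0016). The division of reads between Psme2 and Psme2b is uncertain, and Psme2b overlaps the same-strand gene Gm12185 (84 counts in all) at its end. Psme4, which encodes the activator PA200, and the inhibitor gene Psmf1 did not pass (both 0.08, adjusted p = 0.235 and 0.319), and both passed as higher with library totals alone (0.18 each, adjusted p = 0.015 and 0.020) and with upper quartile scaling (0.17 and 0.16, adjusted p = 0.024 and 0.044).

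The sequences before the starts of 4 genes, and 1 shorter stretch, are shown because they belong to the members the comparison turns on: 2 catalytic subunits that fell, the ATPase with the largest decrease, and the PA28 pair that rose. They come from RefSeq promoter windows (GRCm38.p6), which reach from 250 bases before to 50 after a gene's start and were found for 37 of the 44 members, and all but that of Psme1 are cut where the GENCODE gene begins. The Psme1 stretch is 30 bases around the match, just after the RefSeq start and inside the GENCODE gene, which begins at 55578123. Capitals mark TGACNNNGC for Psmb5 and Psmb6, CCAAT for Psmc1 and, for Psme1, the interferon-response motif (GAAA, any 2 bases, GAAA) read on the opposite strand. The window of Psme2 does not hold the letters of that motif.
Psmb5, chr14:54618023-54618245, minus strand: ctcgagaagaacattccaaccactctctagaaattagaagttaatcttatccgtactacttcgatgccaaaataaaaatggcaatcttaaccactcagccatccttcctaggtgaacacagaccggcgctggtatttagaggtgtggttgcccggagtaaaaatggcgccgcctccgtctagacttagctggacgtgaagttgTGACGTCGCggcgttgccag
Psmb6, chr11:70525107-70525366, plus strand: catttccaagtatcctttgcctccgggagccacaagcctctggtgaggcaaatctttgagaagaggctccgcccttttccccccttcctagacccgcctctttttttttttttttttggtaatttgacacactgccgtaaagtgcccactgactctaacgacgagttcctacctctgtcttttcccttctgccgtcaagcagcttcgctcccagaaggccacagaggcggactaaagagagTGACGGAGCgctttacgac
Psmc1, chr12:100109952-100110153, plus strand: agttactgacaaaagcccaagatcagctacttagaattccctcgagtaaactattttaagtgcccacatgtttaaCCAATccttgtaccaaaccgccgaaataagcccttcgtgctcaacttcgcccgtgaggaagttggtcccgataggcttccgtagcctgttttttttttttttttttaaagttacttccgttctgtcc
Psme2, chr14:55591114-55591351, minus strand: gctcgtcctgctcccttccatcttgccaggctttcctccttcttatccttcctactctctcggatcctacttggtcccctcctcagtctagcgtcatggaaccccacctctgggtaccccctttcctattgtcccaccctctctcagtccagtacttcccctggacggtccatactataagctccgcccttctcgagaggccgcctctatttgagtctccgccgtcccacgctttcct
Psme1, chr14:55578493-55578522, plus strand: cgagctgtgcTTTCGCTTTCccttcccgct

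Each motif was searched on both strands in the whole windows. TGACNNNGC, the core of the antioxidant response element to which NRF1 binds, was in 6 of 37 members (16.2%: Psmb5, Psmb6, Psmc6, Psmd9, Psmd12 and Psme4) and in 13.99% of 27025 genes with a window. Of these 6 members 5 fell and Psme4 did not pass, where 24 of all 44 members fell. A link between motif and change was not tested. CCAAT, bound by NF-Y, was in 12 of 37 members (32.4%) and in 41.1% of all genes. The interferon-response motif was chosen after the values were seen and was in 5 members (13.5%: Psmb3, Psmd4, Psmd9, Psme1 and Psmg4) and in 3.99% of all genes. Of these 5, Psme1 rose and the other 4 fell. Psme1 and Psme2 lie 5911 bases apart on chromosome 14. A match describes letters in the window and shows no binding.

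Assembly chaperones, which build the core and the base and are absent from the finished particle, were mixed, with 4 of 7 lower and 1 higher (median -0.15, or -0.0488 with library totals alone and -0.0649 with upper quartile scaling). Psmd10, the base chaperone also called gankyrin, stood at 62.1 to 75.5 CPM (median 67.1) in shRandom and at 47.3, 45.4, 51.2, 51.1 and 49.7 CPM in shDRP1 libraries (-0.48, SE 0.07, adjusted p = 1.7e-05, edgeR). Another base chaperone, Psmd5, stood at 18.1 to 26.1 CPM (median 21.4) and at 31.1, 53.8, 39.8, 32.5 and 30.8 CPM (0.80, SE 0.14, adjusted p = 1.9e-04). These base chaperones thus moved in opposite directions, each without overlap, and the third, Psmd9, fell to 82.1%. Of the core chaperones Psmg3 and Psmg4 passed narrowly as lower (adjusted p = 0.045 and 0.043), and Psmg1 and Psmg2 did not pass (0.54 and 0.03, adjusted p = 0.096 and 0.906). Psmg3 overlaps the same-strand gene Gm26938, which has no row in the count table, at its end. Leaving out 1 library ended the call of Psmg3 for 9 of the 11 libraries and that of Psmg4 for 8 (adjusted p up to 0.106 and 0.122), as did library totals alone (0.163 and 0.517) and upper quartile scaling (0.116 and 0.354), and without shRandom replicate 1 Psmg1 passed as higher (0.67, adjusted p = 0.040), as it did with the ribosomal RNA share as a covariate (0.49, adjusted p = 0.049).

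**Figure D4:**
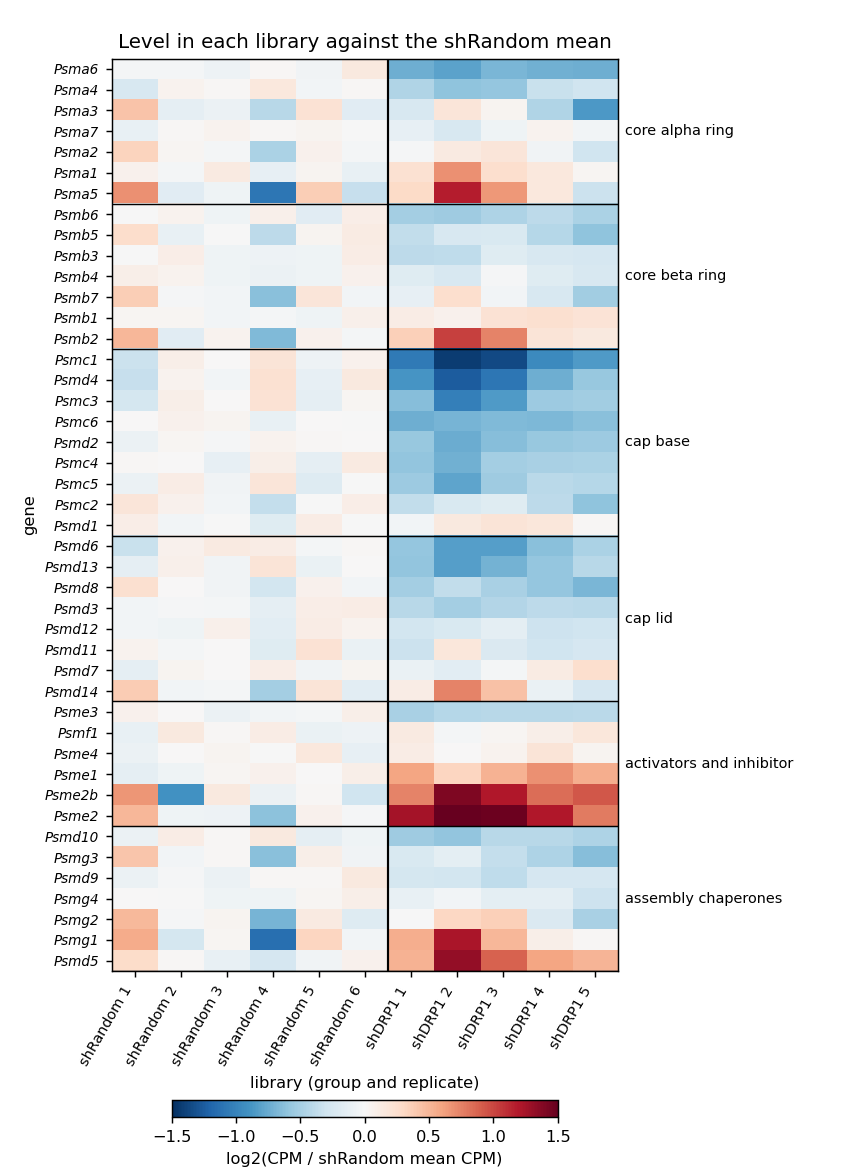
Level of each proteasome gene (rows, by role) in each library (columns) as the log2 ratio of its CPM to the shRandom mean, from blue (lower) to red (higher). The cap base is blue in all 5 shDRP1 libraries except for Psmd1, while Psme2, Psme2b, Psmd5, Psma5 and Psmb2 are reddest in shDRP1 replicate 2.

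Members also varied along a shared axis inside each group, in both directions. When each gene's log2 CPM was set against its group mean, 82.7% of the remaining variance over the 44 genes lay on 1 axis. Genes were not scaled to equal spread, so widely spread genes such as Psma5 and Psmg1 weigh most. No such share was computed over all tested genes. The axis has 24 members with a positive and 20 with a negative loading. At its ends stood shRandom replicate 1 (position 0.47) and shDRP1 replicate 2 (0.45) on one side and shRandom replicate 4 (-0.54) and shDRP1 replicate 5 (-0.40) on the other. Psma5 had the widest spread and loaded most on this axis: it was at 32.5 CPM in shRandom replicate 1 and 9.56 CPM in shRandom replicate 4. Psmg1, Psmb2, Psmg2, Psmd14, Psma3, Psme2 and Psmb7 were also highest in shRandom replicate 1 and lowest in replicate 4 of that group, whereas Psmd4, Psmc1 and Psmc3 were lowest in replicate 1 and highest in replicate 4. Psmc1 was at 611.7 CPM in shRandom replicate 1 and 875.8 CPM in replicate 4. Genes outside the members, such as Syvn1 and Rps27a, were also highest in shRandom replicate 1 and lowest in replicate 4, so this profile is not particular to proteasome genes.

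The position of a gene on this axis went with its change between groups. Across the 44 genes the loading and the log2 fold change had Pearson's r = 0.64 and Spearman's rho = 0.63, a description over genes that share the same libraries. The log2 fold change also went with level: its Pearson's r with a gene's mean log2 CPM was -0.61, lower for members with more counts. The part of level in the difference between core and cap was not tested. Ribosomal RNA counts (Gm42418, mt-Rnr1 and mt-Rnr2) took 4.14% of shRandom replicate 1 and 6.34% to 7.14% of the other shRandom libraries. They took 4.55% and 4.53% of shDRP1 replicates 2 and 3 and 6.63% to 8.72% of the other shDRP1 libraries. With this share as a covariate, an alternative added after seeing the data, 25 members fell and 8 rose. Without shRandom replicate 1 and shDRP1 replicate 2 together, 24 fell and 7 rose. The part of this axis in the single changes was not tested.

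**Figure D5:**
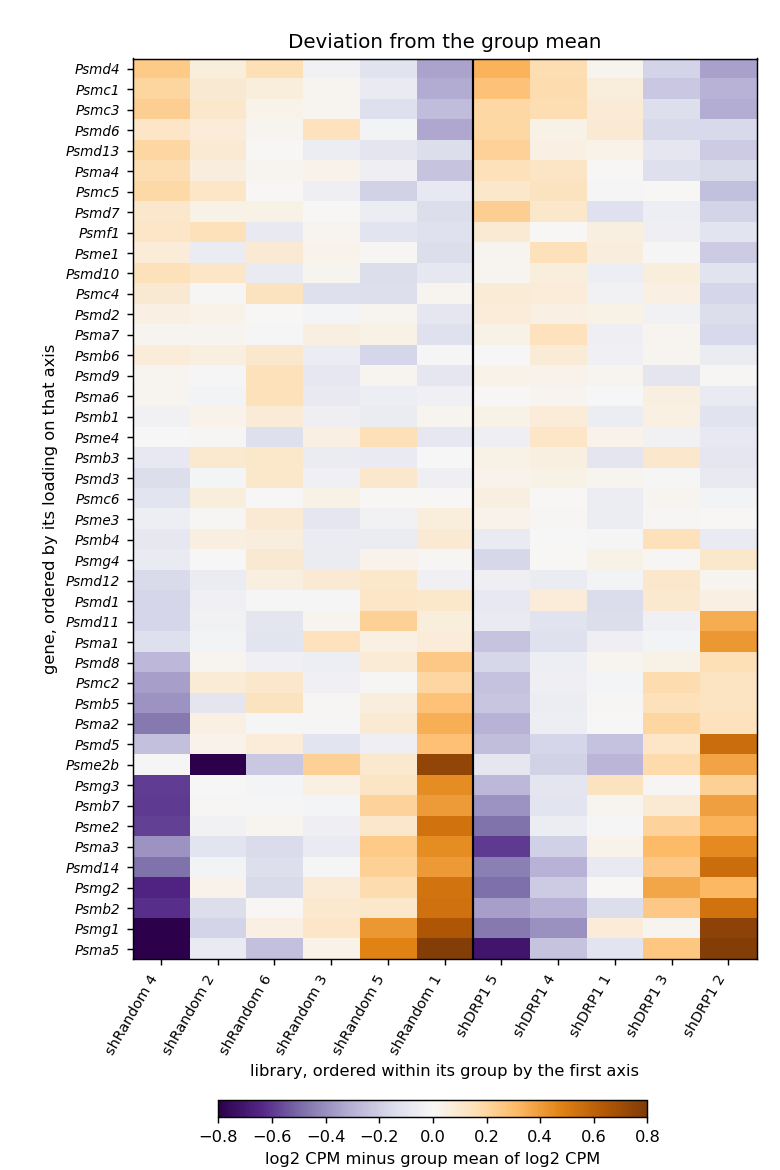
Deviation of each proteasome gene's log2 CPM from the mean of its group (colour), with genes ordered by their loading on the first axis and libraries ordered by their position on it within each group. Psma5, Psmg1 and Psmb2 at the bottom are highest in shRandom replicate 1 and shDRP1 replicate 2 and lowest in shRandom replicate 4, and Psmd4, Psmc1 and Psmc3 at the top run the other way.

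Most genes of the NRF1 route were lower in shDRP1 libraries. In this list of 10 genes the median was -0.56, and 7 fell while 1 rose. Over all tested genes the median was 0.03, with 33.3% lower and 33.9% higher. The difference between this list and all tested genes was not tested, nor was a link to the subunit genes. Nfe2l1 itself stood at 306.4 to 325.8 CPM (median 320.5) in shRandom and at 181.6, 206.2, 176.5, 183.2 and 183.3 CPM in shDRP1 libraries, 58.5% of the shRandom mean (-0.77, SE 0.05, adjusted p = 9.2e-09, edgeR). Ddi2, the protease that activates NRF1, stood at 60.7 ± 3.75 CPM (SD, n = 6) and fell to 68.4% of that. The small MAF partners fell too, Maff to 43.7%, Mafk to 52.3% and Mafg to 81.7%, as did the related factor Nfe2l2, to 67.6%, and Sel1l, to 58.7%. Vcp, the ATPase that extracts NRF1 from the endoplasmic reticulum, was at 608 ± 23.3 and 603 ± 25.5 CPM (adjusted p = 0.857). Ngly1, also in this list, was at 115% of its shRandom mean and did not pass (0.20, adjusted p = 0.071, edgeR). Syvn1, a ubiquitin ligase of the endoplasmic reticulum, rose to 302% (adjusted p = 0.014), with overlapping ranges.

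Factors that work with the proteasome were mixed. Of 16 measured, 6 fell and 3 rose (median -0.03). Pomp, needed to mature the core, stood at 822 ± 56.5 CPM (SD, n = 6) and fell to 78.8% of that, the ubiquitin receptor Adrm1 to 81.1%, its partner deubiquitinase Uchl5 to 76.6%, the shuttle factor Ubqln4 to 66.6% and Akirin2, which helps carry proteasomes into the nucleus, to 82.4%. Those that rose were Zfand2a (to 142% of the shRandom mean), Ubqln2 (132%) and the deubiquitinase Usp14 (112%), with overlapping ranges for Zfand2a and Ubqln2. Of 11 ubiquitin and p97 cofactor genes 6 fell (54.5%) and 3 rose (27.3%), with a median of -0.19. The ubiquitin gene Ubb fell to 85.8%, and the ubiquitin-activating enzyme Uba6 rose to 184%.

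The inducible catalytic subunit Psmb10, left out of the members, rose together with Psme1 and Psme2. It stood at 13.4 to 15.5 CPM (median 14.3) in shRandom and at 37.1, 34.6, 46.1, 47.6 and 40.4 CPM in shDRP1 libraries (1.53, SE 0.09, adjusted p = 1.4e-09, edgeR). Psmb10 lies on chromosome 8 (105935735 to 105938444, minus strand). Of the 93 other tested genes within 5 Mb of it, a window added after seeing the data, 51 rose, 14 fell and 28 did not pass (median 0.36), and their part in the change of Psmb10 was not tested. Psmb8 had 43 raw counts in the 6 shRandom and 54 in the 5 shDRP1 libraries and did not pass the filter on low counts. These sums are not scaled to library totals, so they do not compare the groups. Psmb9 has no row in the count table. In the list of immunoproteasome and peptide loading genes 4 of 6 measured rose (66.7%) and none fell (median 0.67). The shares over all tested genes were 33.9% higher and 33.3% lower, which also serve as background for the neighbours of Psmb10. Tapbp, which bridges the peptide transporter to class I molecules, stood at 136 ± 12.8 CPM (SD, n = 6) and rose to 180% of that, the trimming peptidase Erap1 to 287% and B2m to 140%, whereas the transporter genes Tap1 and Tap2 did not pass (adjusted p = 0.226 and 0.788).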

How the data were processed

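Messenger RNA of C2C12 cells was counted in 6 shRandom and 5 shDRP1 libraries, grouped by the hairpin in the sample titles. Per the labels' protocols, libraries were 3' tag libraries (QuantSeq), in which a transcript is counted near its poly(A) tail, so CPM is not divided by transcript length. Per the submitters' processing notes GRCm38, mm10 and DESeq2 version 1.22.2 were used; for the aligner, counting program and strand setting, no name is given in the sources used here. Raw counts per gene, as deposited by the authors, were used as they stand; a second table by the authors, the same counts divided by 1 size factor per library, was not used.

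Of 15113 rows, 15080 matched a symbol; positions came from GENCODE M21 (GRCm38). Genes were filtered with filterByExpr (13025 left), scaled by TMM and compared in edgeR (version 4.0.16, run in R 4.3.3) by a robust quasi-likelihood fit with group as the only term and Benjamini-Hochberg adjustment over all tested genes at 0.05. Each SE is the absolute log2 fold change over the square root of F. The steps were tested on simulated data in which few genes changed, unlike here, so that test does not cover the choice of scaling. Lists are given by counts and medians, with no test over members.

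The members and lists were chosen with earlier results of these data known. All members are named; values by library are given for Psmb5, Psmb6, Psmb7, Psmd7 and the 2 members of each role with the smallest adjusted p, and up to 6 called genes of each other list are named, except some that are not reported here. The library values of Psme2, Psmc1, Psma5, Psmb10 and Nfe2l1 were added after values were seen. So were Mafg, Syvn1, Vcp, Ngly1, Sem1, Usp14, Zfand2a, Ubqln2, Rps27a, Tap1 and Tap2. Alternatives were median-ratio, total-count and upper quartile scaling, no filter and a stricter filter (1 CPM in 5 libraries), DESeq2 version 1.42.0, limma-voom (version 3.58.1), the replicate number as a block, an adjusted p of 0.01, each library left out, shRandom 1 with shDRP1 2 left out, and, added after seeing the data, the ribosomal RNA share as a covariate.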

Additional observations from a re-analysis of the deposited data

Results flagged for a closer look

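Single libraries stood apart from the rest of their group for 4 members, all within the shDRP1 group; 94 group-and-measure combinations were looked at, and chance gives about 1 in 20. Psmb4 was at 488.1 CPM in shDRP1 replicate 3 and at 419.6 to 438.3 CPM in the others. Psmd9 was at 27.0 CPM in the same library and at 29.2 to 29.7 CPM in the others. Psmd11 was at 102.8 CPM in shDRP1 replicate 2 against 73.3 to 78.6 CPM, and Psma1 was at 102.5 CPM in that library against 65.3 to 75.7 CPM.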

How the results depend on the processing

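Of 968 single-gene values (44 members under 22 alternatives), 892 kept direction and side of the threshold, 44 lost the call, 11 gained it and 21 changed sign. Of the 31 called members 23 kept call and direction under every alternative. With library totals alone the medians were -0.14 over all members, -0.0404 for the core, -0.44 for the cap and 0.41 for activators and inhibitor, and with upper quartile scaling -0.15, -0.0560, -0.45 and 0.40. The log2 ratios of summed CPM were -0.14 for the core and -0.51 for the cap, and became -0.0446 and -0.41 with library totals and -0.0595 and -0.42 with upper quartile scaling. At an adjusted p of 0.01 4 members rose, where 27.6% of all tested genes did, and 21 fell, where 28.9% did. Without shRandom 1 and shDRP1 2 together the median over members was -0.27. Leaving out 1 library at a time gave medians from -0.28 to -0.20 over members, from -0.20 to -0.0917 for the core and from 0.28 to 0.34 for activators and inhibitor.

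Under the alternatives run, 4 members changed sign, none of which had passed the test. Psma2 turned to 0.0965 with library totals, 0.0812 with upper quartile scaling, 0.0028 with the stricter filter, 0.0067 with limma-voom, 0.0074 with the replicate block and 0.0313 without shRandom 1 and shDRP1 2, and ran from -0.0809 to 0.0686 with 1 library left out. Psma7 turned to 0.0191 and 0.0053 with library totals and upper quartile scaling. With 1 library left out Psmd7 ran from -0.0366 to 0.0573 and Psmg2 from -0.0790 to 0.1410, and Psmg2 was at -0.0094 with the ribosomal RNA share as covariate. The cause was not tested.

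Whether equal replicate numbers pair the libraries is not known. Deviations from the group mean in same-numbered libraries correlated at -0.14, -0.15, -0.24, 0.44 and -0.21. Only shDRP1 replicate 4 matched best with the shRandom library of its own number. These values cannot decide the question, since spread shared across numbers can mask a pairing. With the replicate number as a block on the libraries numbered 1 to 5, 22 members fell and 5 rose; Psma1 (adjusted p = 0.057), Psmb1 (0.053), Psmb4 (0.111) and Psmg4 (0.175) no longer passed.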
